A study of Mus musculus with 12 samples.

Results

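The genes of the smooth muscle contractile apparatus were followed across ligated and unligated mouse carotid arteries, with and without an inhibitor of DNA methylation. They were 10 genes chosen by name: the actins Acta2 and Actg2, the myosin heavy chain Myh11, the regulatory light chain Myl9, the light chain kinase Mylk, the actin-binding proteins Tagln, Cnn1, Smtn and Lmod1, and the intermediate filament gene Des. All 23 array probes annotated to them were taken, of 45281 probes on the array, and the 10 genes stand among 19057 genes with a probe.

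Smooth muscle cells of the arterial wall shorten when myosin light chain kinase, activated by calcium and calmodulin, phosphorylates the regulatory light chain and lets myosin heavy chains pull on actin. Transgelin, calponin and smoothelin bind the actin filaments, leiomodin nucleates them, and desmin ties the contractile units together. Many of these genes are switched on by serum response factor and its coactivator myocardin through CArG boxes, and the cells lose this set when they leave the contractile state after injury. Endothelial cells also hold actomyosin, so a change in these genes is not read here as a change in the muscular wall alone.

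The RNA was flushed from the lumen of carotid arteries, so it was enriched for endothelial cells, and each of the 12 samples was pooled from 3 arteries. All mice were male C57Bl6, 9 weeks of age per the labels, and all had partial ligation of the left carotid artery (LCA), which closes 3 of its 4 caudal branches, with the right carotid artery (RCA) left alone. The groups, each of 3 samples, were 5Aza LCA and 5Aza RCA, from mice injected with 5-aza-2'-deoxycytidine (5Aza, a nucleoside that traps DNA methyltransferases) at 0.2 mg/kg/day for 3 weeks, and saline LCA and saline RCA, from mice injected with saline for as long. Surgery came after 2 weeks of injection and the arteries were taken 7 days later. There was no sham operation, so flow, surgery and side of the body cannot be told apart in what is called a flow difference here, ligated minus unligated. A gene said to rise with flow was thus higher in the ligated artery, where flow was disturbed, and not higher with more flow. Samples carry the numbers of their titles (1, 2 and 4, and 1, 3 and 4 in 5Aza RCA).

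CArG boxes, a CC and GG pair around a core of 6 A or T bases, were searched on both strands in windows of 250 bases before and 50 after the RefSeq gene start (build GRCm38.p6), allowing 1 other base in the core. Windows were found for 7 of the 10 genes: Acta2, Cnn1, Des, Smtn, Lmod1, Mylk and Myl9. Actg2, Myh11 and Tagln were not matched to a window. Acta2 and Myl9 are shown because their windows were the 2 that held a match, and because Myl9 was the gene called with flow and Acta2 has the most probes tested. The 250 bases before the start are printed 5' to 3', with the CArG matches in capitals, for Acta2 at chr19:34255374-34255623 on the minus strand and for Myl9 at chr2:156775214-156775463 on the plus strand.
Acta2: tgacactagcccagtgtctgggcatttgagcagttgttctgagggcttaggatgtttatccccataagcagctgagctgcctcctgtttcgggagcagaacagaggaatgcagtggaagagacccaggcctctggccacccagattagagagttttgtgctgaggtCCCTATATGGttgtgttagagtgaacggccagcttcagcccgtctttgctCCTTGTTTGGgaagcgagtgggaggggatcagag
Myl9: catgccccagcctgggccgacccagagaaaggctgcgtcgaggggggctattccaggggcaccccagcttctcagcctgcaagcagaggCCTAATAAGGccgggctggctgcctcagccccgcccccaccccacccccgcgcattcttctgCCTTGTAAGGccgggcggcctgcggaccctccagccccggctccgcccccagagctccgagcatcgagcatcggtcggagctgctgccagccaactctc
In Acta2 the matches CCCTATATGG and CCTTGTTTGG begin 84 and 34 bases before the start, and each holds 1 base other than A or T in its core. In Myl9 the match CCTAATAAGG, which begins 161 bases before the start, has a full A and T core, and CCTTGTAAGG, at 99 bases, differs at 1 base. Of all 32851 windows, 9.984% held at least 1 match and 0.822% held 2 or more. No match in the Cnn1, Des, Smtn, Lmod1 and Mylk windows says only that these letters are not in those stretches. Since 5Aza acts on cytosine methylation at CpG, CpGs were counted as well: the full 300-base windows held 6 in Acta2 and 20 in Myl9, against a median of 7.0 over all windows. The 7 matched genes had a median of 7 too, from 4 in Mylk to 20 in Myl9, and the upper quartile of all windows was 20.0. No methylation was measured in the files used here.

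Some facts of the whole series touch these genes. The saline LCA group was split. Arrays 2 and 4 correlated at 0.971 over genes with each other but at 0.857 and 0.856 with saline LCA 1. They correlated at 0.803 to 0.887 and 0.801 to 0.885 with the 9 arrays of the other groups, where saline LCA 1 gave 0.915 to 0.940. Saline LCA 1 was therefore nearer to the other groups, and leaving it out keeps the 2 arrays farthest from them, those with macrophage markers at 8.86 and 9.09 against 6.85 in saline LCA 1. Arrays also differed in markers of other cells. Endothelial markers averaged 8.71 to 8.87 (log2 level of 17 genes) in 5Aza LCA against 9.03 to 9.12 in 5Aza RCA, and 8.65 to 8.72 in saline LCA against 9.01 to 9.15 in saline RCA, with 17 or 18 of 18 genes detected on every array. Macrophage markers averaged 6.56 to 7.43 (16 genes) in 5Aza LCA against 4.52 to 5.59 in 5Aza RCA, and 6.85 to 9.09 in saline LCA against 4.29 to 5.20 in saline RCA. Most of those 16 passed the filter given below through the ligated groups alone, where they were high. On 5Aza LCA 4, 12 of 15 skeletal muscle markers were detected, where the other arrays had 2 to 5. The 4 adipocyte markers tested averaged 5.81 to 8.32 in 5Aza LCA and 4.26 to 5.73 in 5Aza RCA, against 4.24 to 4.37 in saline LCA and 4.28 to 5.17 in saline RCA. These 4 passed the filter given below through 5Aza LCA alone, the group where they were highest. In such bulk RNA, fewer cells of a type and less RNA per cell cannot be told apart. The plot of marker lists sets these levels beside the contractile genes.

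**Figure D1:**
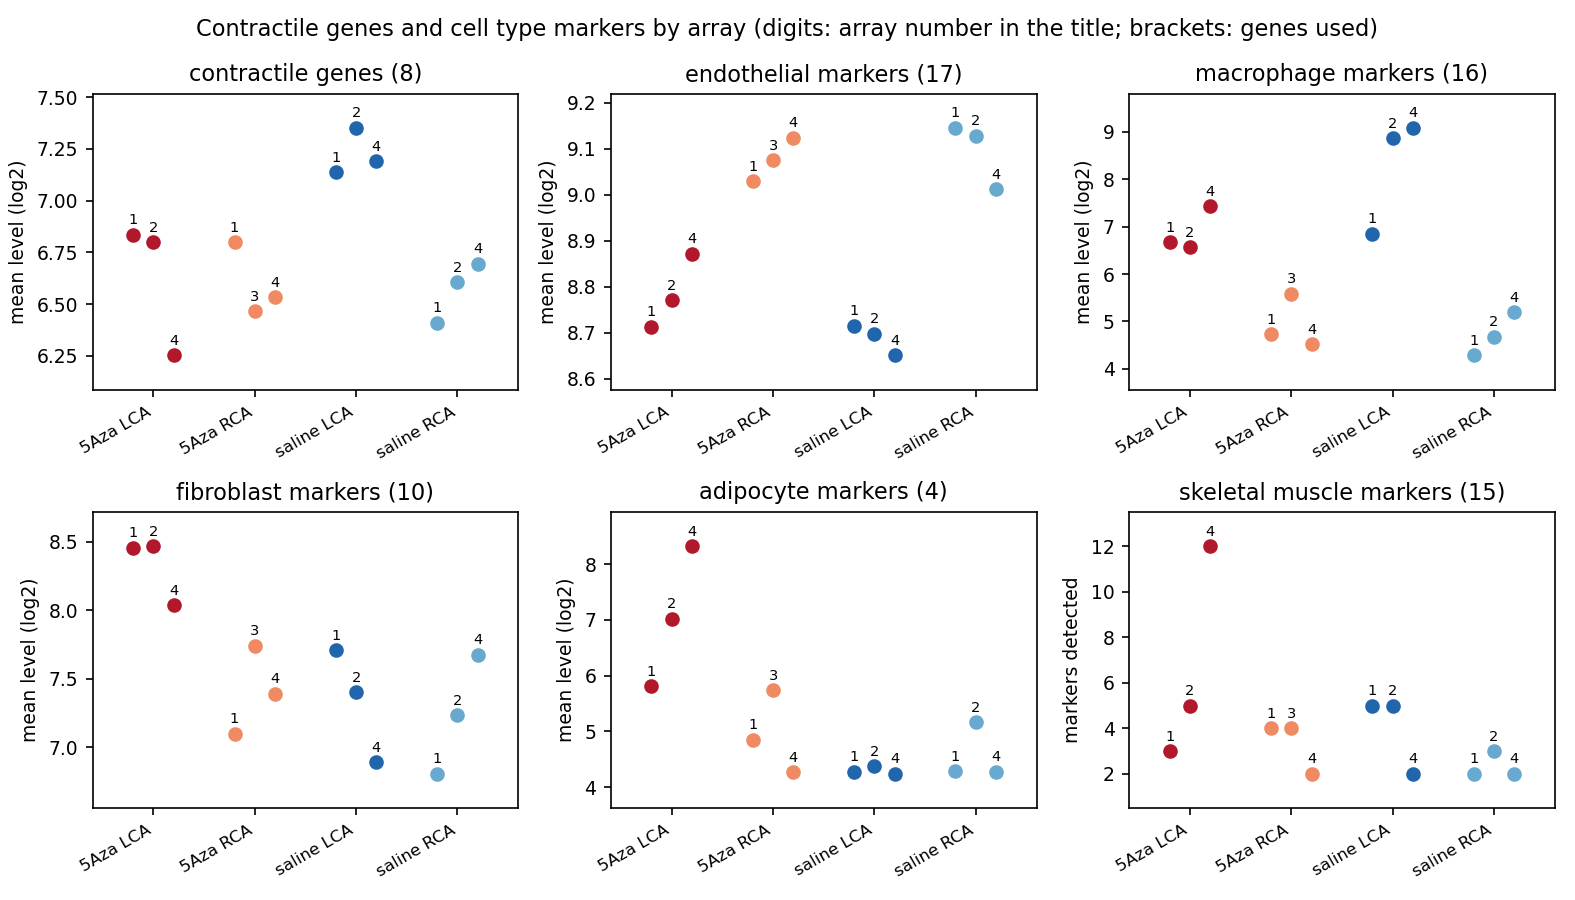
Each point is 1 array, numbered as in its title, in the groups 5Aza LCA, 5Aza RCA, saline LCA and saline RCA. The vertical axis is the mean log2 normalized intensity of the genes in brackets, and for skeletal muscle the number of markers detected. The contractile genes averaged 7.14 to 7.35 in saline LCA and at most 6.84 elsewhere, and 5Aza LCA 4 was lowest of all at 6.25. Macrophage markers, most of them past the filter through the ligated groups alone, were higher on every ligated array than on every unligated one.

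Of the 23 probes, 16 passed the filter (detected at p under 0.05 on all 3 arrays of at least 1 group), and they covered 8 of the 10 genes. Levels below are log2 normalized intensities of the brightest probe of a gene. Differences are log2 fold changes from limma over 10596 genes, with adjusted p-values after Benjamini-Hochberg, and a gene rose or fell only where adjusted p was under 0.05. Levels of different genes come from different probes and are not compared. Probes cannot be ranked for how well they tell near-identical family members apart, which for Acta2, Actg2 and the other actins was not tested.

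Under saline, Myl9 rose with flow, the groups of Acta2, Actg2, Tagln and Mylk lay wholly above those of the unligated artery without passing the test, and Myh11, Cnn1 and Smtn overlapped. So 1 of the 8 genes tested was called, where 11.5% of all genes tested were called, and 5.29% were called higher. Groups that did not overlap, with the ligated artery higher, were found for 5 of the 8 genes and for 13.3% of all genes. The median of the 8 log2 fold changes was 0.71 (median of all genes -0.05). Under 5Aza the median flow difference of the same 8 genes was 0.04 (all genes -0.02), and 0 were called (0.453% of all genes, 12.2% at an unadjusted p under 0.05). There Tagln alone had ligated arrays wholly above unligated ones (10.9% of all genes), and Actg2 alone wholly below (12.2%).

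**Figure D2:**
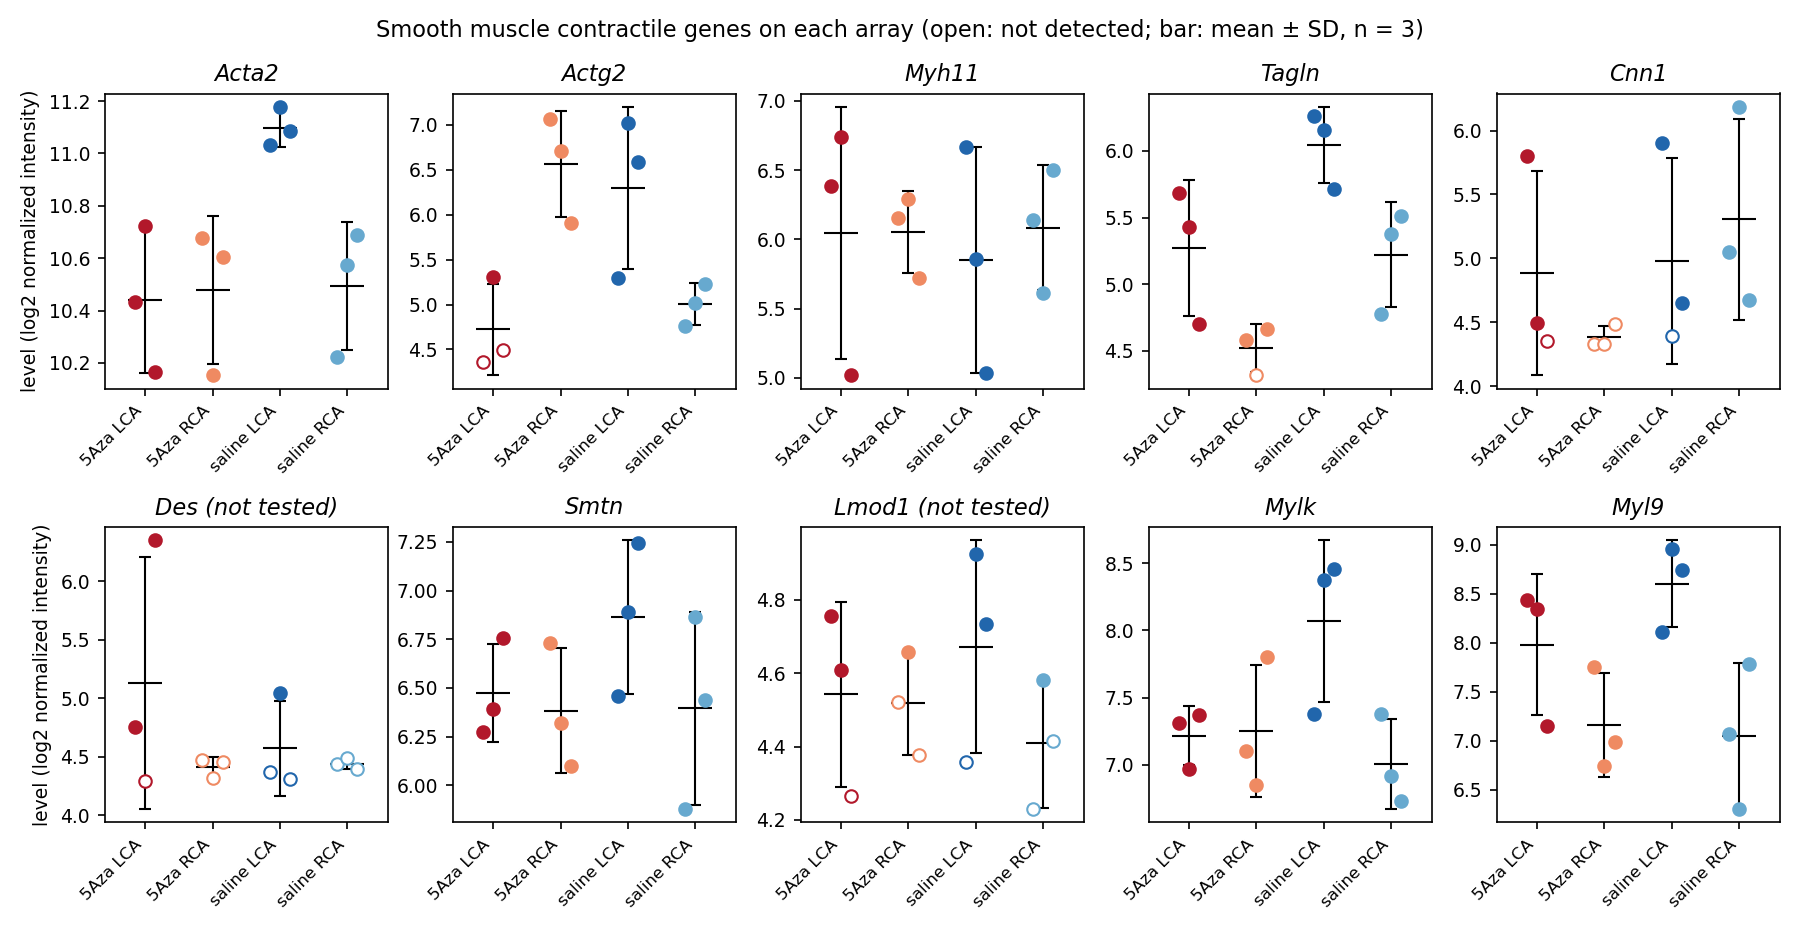
Log2 normalized intensity of each of the 10 genes on each array (brightest probe), by group from left to right 5Aza LCA, 5Aza RCA, saline LCA and saline RCA. Open points were not detected, and bars are the mean ± SD of 3 arrays. Saline LCA was the highest group in mean for Acta2, Tagln, Smtn, Lmod1, Mylk and Myl9. Actg2 was high in 5Aza RCA and saline LCA and low in the other groups.

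Myl9 encodes the regulatory light chain that is phosphorylated when smooth muscle contracts. Its level was 8.44, 8.35 and 7.15 in 5Aza LCA and 7.75, 6.74 and 6.98 in 5Aza RCA. It was 8.11, 8.96 and 8.74 in saline LCA and 7.07, 6.31 and 7.78 in saline RCA. Every saline LCA array thus lay above every saline RCA array, whereas under 5Aza the low value of 5Aza LCA 4 fell inside the range of the unligated arteries. Under saline Myl9 rose by 1.55 (SE 0.44, 95% confidence interval 0.59 to 2.51, adjusted p = 0.0436). Under 5Aza the difference was 0.82 (SE 0.44, adjusted p = 0.479), and it was 1.23 (adjusted p = 0.349) without 5Aza LCA 4. The flow difference under 5Aza minus that under saline was -0.73 (SE 0.62, adjusted p = 0.699), so the 2 were not shown to differ. The call under saline was close to its threshold: adjusted p ran from 0.00563 to 0.165 over the alternatives and was 0.0164 without saline LCA 1. It was lost without saline LCA 2 or 4, saline RCA 1 or 2, 5Aza LCA 1 or 2, or 5Aza RCA 3 or 4, with adjusted p between 0.0502 and 0.165. It was also lost with a replicate block by title number (adjusted p = 0.0815), by description number (0.0629) or by treatment and title number (0.0664), with only the 2 groups compared in the fit (0.0964) and without a filter on dim probes (0.104).

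Mylk encodes the kinase that phosphorylates that light chain, and its locus also makes a long form used by endothelial cells. Its level was 7.31, 6.96 and 7.37 in 5Aza LCA and 7.10, 6.85 and 7.80 in 5Aza RCA. It was 7.38, 8.37 and 8.46 in saline LCA and 7.37, 6.91 and 6.73 in saline RCA. Saline LCA 2 and 4 were above all other arrays, while saline LCA 1 sat at the level of the highest saline RCA array. The flow difference was 1.07 under saline (SE 0.32, adjusted p = 0.0534) and -0.04 under 5Aza (SE 0.32, adjusted p = 0.977). Fitted on their own, the other Mylk probes past the filter gave smaller differences under saline, and their groups overlapped. Those were 0.75 (SE 0.41, adjusted p = 0.266) and 0.08 (SE 0.32, adjusted p = 0.897). Between the ligated arteries the 5Aza minus saline difference was -0.86 (SE 0.32, adjusted p = 0.193), and the groups did not overlap. Without saline LCA 1, the flow difference under saline was 1.42 (adjusted p = 0.00362), the difference between ligated arteries -1.21 (adjusted p = 0.0132) and the difference of the 2 flow effects -1.46 (adjusted p = 0.035), in place of -1.10 (adjusted p = 0.499) with all arrays. Passing was common in that setting, where 30.9%, 21.2% and 11.2% of all genes were called in those 3 comparisons.

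Acta2, the actin isoform that dominates in vascular smooth muscle, ranged from 10.15 to 11.18 over the 12 arrays. Its level was 10.43, 10.72 and 10.17 in 5Aza LCA and 10.68, 10.15 and 10.60 in 5Aza RCA. It was 11.03, 11.18 and 11.08 in saline LCA and 10.22, 10.57 and 10.69 in saline RCA. Saline LCA stood above the other 9 arrays, which overlapped. The flow difference was 0.60 under saline (SE 0.21, adjusted p = 0.0786) and -0.04 under 5Aza (SE 0.21, adjusted p = 0.964). Between ligated arteries the 5Aza minus saline difference was -0.66 (SE 0.21, adjusted p = 0.138), and between unligated arteries it was -0.02 (SE 0.21, adjusted p = 1.00). Without saline LCA 1 the flow difference under saline was 0.63 (adjusted p = 0.0565) and the difference between ligated arteries -0.69 (adjusted p = 0.0545).

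Actg2, the actin isoform typical of visceral smooth muscle, had a different pattern from Acta2. Its level was 4.36, 5.31 and 4.50 in 5Aza LCA and 7.06, 6.71 and 5.91 in 5Aza RCA. It was 5.29, 7.02 and 6.58 in saline LCA and 4.76, 5.02 and 5.23 in saline RCA. The single Actg2 probe was detected on 10 of 12 arrays, and the 2 without detection were 5Aza LCA 1 and 4. Only 1 of the 3 arrays of 5Aza LCA thus measured it, and differences from that group rest partly on values at background. Under saline every ligated value was above every unligated one, by a difference of 1.30 (SE 0.43, adjusted p = 0.0696). Under 5Aza every ligated value was below every unligated one, by a difference of -1.84 (SE 0.43, adjusted p = 0.100). The 2 flow differences differed by -3.14 (SE 0.61, unadjusted p = 0.000259, adjusted p = 0.229) in a test that called 0 genes (0% of all genes, 9.52% at an unadjusted p under 0.05). Of all genes, 0.293% had groups apart in these opposite directions. Against saline, 5Aza gave -1.58 in the ligated artery (adjusted p = 0.105, the groups touching at 5.31 and 5.29) and 1.56 in the unligated artery (adjusted p = 0.663, groups apart).

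Whether Actg2 passed the test depended on 1 array and on the weighting of arrays. Without saline LCA 1 the flow difference under saline was 1.79 (adjusted p = 0.00349), that under 5Aza -1.82 (adjusted p = 0.0188), the difference between ligated arteries -2.07 (adjusted p = 0.00259) and the difference of the flow effects -3.62 (adjusted p = 0.0013). Without that array 30.9%, 2.60%, 21.2% and 11.2% of all genes were called in these 4 comparisons. The 5Aza effect on Actg2 in the unligated artery stayed at 1.55 (adjusted p = 0.291).

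Tagln encodes transgelin, an early and abundant actin-binding protein of smooth muscle. Its level was 5.68, 5.43 and 4.70 in 5Aza LCA and 4.58, 4.32 and 4.66 in 5Aza RCA. It was 6.26, 6.15 and 5.72 in saline LCA and 4.78, 5.38 and 5.51 in saline RCA. Tagln was the only tested gene of the 8 whose ligated group was wholly above the unligated one under both treatments, and its 5Aza groups were wholly below the saline groups in both arteries. Of all genes, 3.95% had the first arrangement and 0.708% the second. Tagln was not detected on 5Aza RCA 3, and its values of 4.58 and 4.66 on 5Aza RCA 1 and 4 were close to the limit of detection. Differences from 5Aza RCA thus rest partly on a value at background. The flow difference was 0.75 under 5Aza (SE 0.28, adjusted p = 0.318) and 0.82 under saline (SE 0.28, adjusted p = 0.0754), and the 2 differed by -0.07 (SE 0.40, 95% confidence interval -0.94 to 0.79, adjusted p = 0.963). The 5Aza minus saline difference was -0.77 in the ligated artery (adjusted p = 0.179) and -0.70 in the unligated artery (adjusted p = 0.856), none of them past the threshold. Its second probe did not pass the filter and was detected on 6 of 12 arrays. That probe averaged 5.08 in 5Aza LCA, 4.24 in 5Aza RCA, 4.76 in saline LCA and 4.84 in saline RCA. Its means ran the other way from the first probe with flow under saline and between the ligated arteries. They ran the same way with flow under 5Aza and between the unligated arteries.

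Myh11, the myosin heavy chain held to be most specific to smooth muscle, did not follow the actins. Its level was 6.38, 6.74 and 5.02 in 5Aza LCA and 6.15, 6.29 and 5.72 in 5Aza RCA. It was 6.67, 5.86 and 5.03 in saline LCA and 6.14, 5.61 and 6.50 in saline RCA. All 4 groups overlapped, and each ligated group held 1 low array, at 5.02 in 5Aza LCA and 5.03 in saline LCA. The flow difference was -0.01 under 5Aza (SE 0.47, adjusted p = 0.997) and -0.23 under saline (SE 0.47, 95% confidence interval -1.26 to 0.79, adjusted p = 0.782). An interval this wide still holds a difference of the size seen for Acta2.

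Cnn1, a calponin that damps actin-activated myosin, was close to the limit of detection. Its level was 5.80, 4.49 and 4.36 in 5Aza LCA and 4.33, 4.33 and 4.49 in 5Aza RCA, with detection on 2 arrays and on none. It was 5.90, 4.39 and 4.65 in saline LCA and 5.05, 6.19 and 4.68 in saline RCA, with detection on 2 arrays and on 3. It passed the filter through saline RCA alone, the group where it was highest, so nothing is read from its difference between the unligated arteries. Since it was not detected in 5Aza RCA, its fitted mean there, 4.38, is a value at background. The fitted mean in saline RCA, 5.30, was 1.74-fold above the detection limit of the 5Aza RCA arrays. That bound concerns the means alone and leaves out the spread of the saline RCA arrays. The fitted difference was -0.92 (SE 0.49, adjusted p = 0.936) and was not called, so no minimum fall was shown. The flow difference under 5Aza did not pass (adjusted p = 0.714), and its groups overlapped. The flow difference under saline was -0.32 (SE 0.49, adjusted p = 0.698), with overlapping groups.

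Smtn encodes smoothelin, a filament-associated protein of contractile cells. Its level was 6.27, 6.39 and 6.76 in 5Aza LCA and 6.73, 6.32 and 6.10 in 5Aza RCA. It was 6.46, 6.89 and 7.24 in saline LCA and 5.88, 6.87 and 6.44 in saline RCA. The groups overlapped in every pair, with flow differences of 0.09 under 5Aza (SE 0.29, adjusted p = 0.936) and 0.47 under saline (SE 0.29, adjusted p = 0.308).

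Des and Lmod1, the desmin and leiomodin genes, did not pass the filter and were not tested. Des was detected on 3 of 12 arrays, at 4.76 in 5Aza LCA 1, 6.35 in 5Aza LCA 4 and 5.04 in saline LCA 2, and was 4.30 to 4.49 on the others. Its highest array was the one with the skeletal muscle markers, where Tnni2, a fast skeletal troponin, was at 7.36, the fast myosin Myh4 at 6.35 and the myosin light chain Myl1 at 6.32; striated muscle also makes desmin. Ckm, Myh7 and Tnni1 of the same list were not detected on that array, and the part of skeletal muscle in the Des value was not tested. Lmod1 was detected on 6 of 12 arrays and stayed between 4.23 and 4.93 on all of them.

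**Figure D3:**
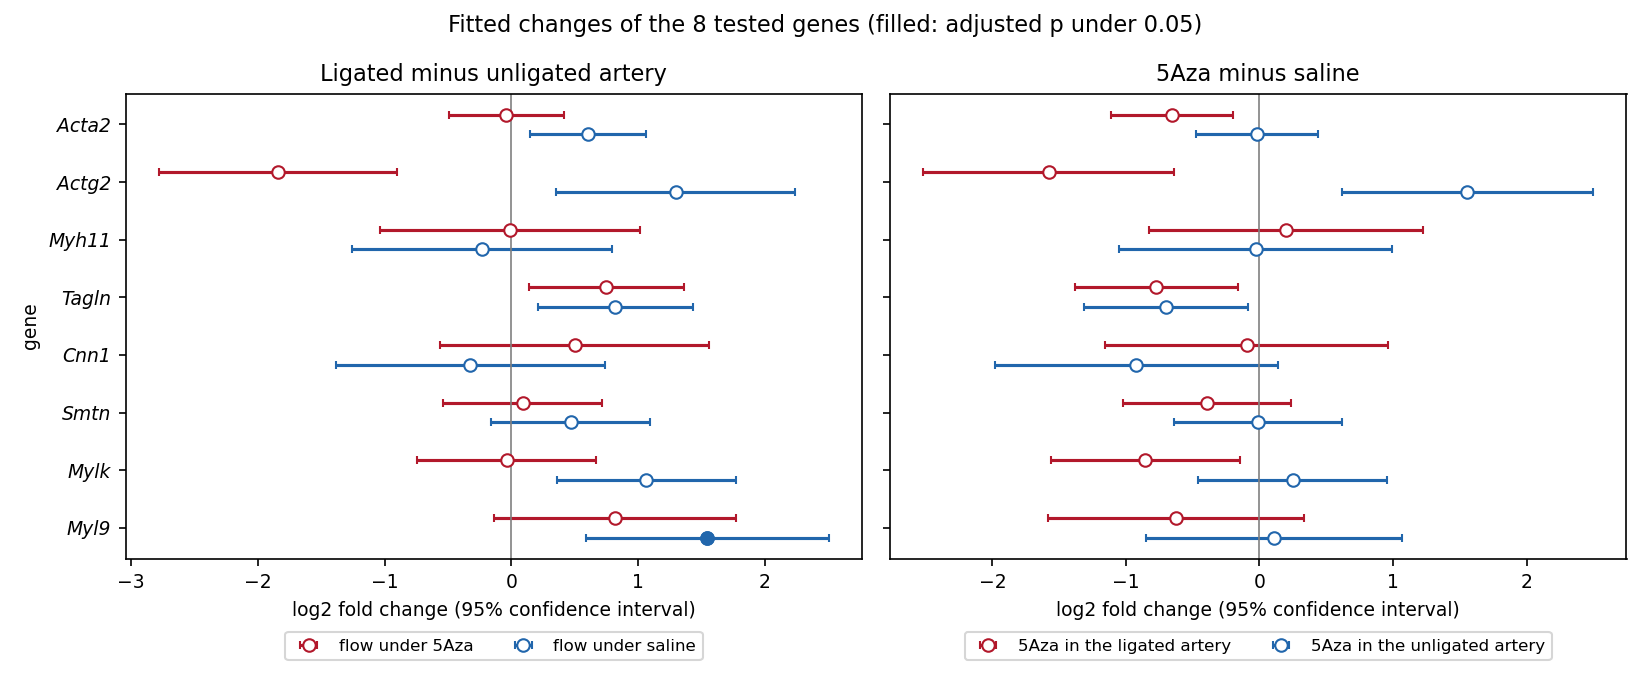
Log2 fold changes (horizontal axis) of the 8 tested genes with 95% confidence intervals, on the left ligated minus unligated arteries in 5Aza mice (red) and saline mice (blue), on the right 5Aza minus saline in the ligated (red) and unligated (blue) artery. Filled points had adjusted p under 0.05. The single filled point is Myl9 under saline at 1.55, and Actg2 lies at -1.84 under 5Aza and at 1.30 under saline.

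Across the ligated arteries, 5Aza went with lower values for 7 of the 8 genes, by a median of -0.64 (all genes 0.04), but 0 of the 8 passed (0.462% of all genes, 18.6% at an unadjusted p under 0.05). Acta2, Tagln and Mylk had 5Aza LCA wholly below saline LCA by their brightest probes, an arrangement found for 8.02% of all genes. With probes numbered from the brightest, Acta2 probe 4 and Mylk probe 2 lay so too. Acta2 probes 2, 3 and 5 and Mylk probe 3 overlapped. This comparison and the flow comparison under saline share the saline LCA arrays, so their values are not independent of each other. With 5Aza LCA 4 left out, the differences were -0.51 for Acta2 (adjusted p = 0.268), -0.49 for Tagln (adjusted p = 0.359), -0.93 for Mylk (adjusted p = 0.236) and -0.21 for Myl9 (adjusted p = 0.827, in place of -0.62 and 0.465). In the unligated arteries, where 0 of the 8 and 0% of all genes passed (5.70% at an unadjusted p under 0.05), the median was -0.01, also with Cnn1 at its bound, and the differences of the 7 genes without Cnn1 ran from -0.70 for Tagln to 1.56 for Actg2. Actg2 was wholly higher in 5Aza RCA (7.38% of all genes), and Tagln was wholly lower (6.17%). The flow-by-5Aza difference had a median of -0.51 over the 8 genes (all genes 0.04) and was negative for 6 of them.

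Genes with several probes allowed a second look, with each of 18150 probes fitted on its own and probes of a gene numbered from the brightest. Of the 16 probes of these genes, 4 were called higher with flow under saline, 3 of the 5 of Acta2 and that of Myl9 (8.93% of all probes were called, 4.27% higher). None of the 16 was called with flow under 5Aza (0.198% of all probes), with 5Aza in the ligated (0.231%) or unligated artery (0%), or in the interaction (0%). The brightest Acta2 probe gave 0.60 (SE 0.21, adjusted p = 0.0922), and the next 3 gave 1.01 (SE 0.24, adjusted p = 0.0287), 1.05 (SE 0.22, adjusted p = 0.0173) and 0.95 (SE 0.26, adjusted p = 0.0443). These probes share the same RNA and are no added replicates. Acta2 probe 3 was at 8.76, 8.40 and 8.38 in 5Aza LCA and 7.79, 7.63 and 7.60 in 5Aza RCA, and at 8.51, 9.16 and 9.13 in saline LCA and 8.05, 7.63 and 7.97 in saline RCA. Its ligated values were all above its unligated ones under both treatments, unlike those of the brightest probe, with a difference of 0.84 under 5Aza (SE 0.22, adjusted p = 0.16). Acta2 probe 2 behaved likewise under 5Aza (0.64, SE 0.24, adjusted p = 0.341), while probe 4 gave 0.06 (SE 0.26, adjusted p = 0.957). The probes of Acta2 thus disagreed on whether a flow difference was present under 5Aza, although none was called there.

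Mylk and Smtn held probes that departed from their brightest one. Mylk probe 2 was at 4.30, 5.07 and 5.95 in 5Aza LCA and 6.64, 6.54 and 6.54 in 5Aza RCA, and at 6.22, 6.69 and 6.80 in saline LCA and 6.37, 4.97 and 6.12 in saline RCA. Its 5Aza LCA values lay below all 5Aza RCA and all saline LCA values, with differences of -1.47 under flow with 5Aza (SE 0.41, adjusted p = 0.186) and -1.46 between ligated arteries (SE 0.41, adjusted p = 0.117). Mylk probe 2 was not detected on 5Aza LCA 1, at 4.30, so these differences rest partly on a value at background. Mylk probe 3 gave 0.09 (SE 0.32, adjusted p = 0.946) and 0.11 (SE 0.32, adjusted p = 0.895) in the same comparisons. With flow under saline, Mylk probe 2 gave 0.75 and probe 3 gave 0.08, both with overlapping groups. For the difference of the flow effects, probe 2 gave -2.21 (SE 0.58, adjusted p = 0.403) and probe 3 gave 0.01 (SE 0.45, adjusted p = 0.995). Smtn probe 3 was at 5.61, 5.29 and 6.43 in 5Aza LCA and 5.75, 6.02 and 5.22 in 5Aza RCA, and at 7.33, 6.77 and 6.73 in saline LCA and 6.93, 6.62 and 6.88 in saline RCA. All 6 of its 5Aza values were below all 6 saline values. The 5Aza minus saline differences were -1.17 in the ligated artery (SE 0.30, adjusted p = 0.107) and -1.15 in the unligated one (SE 0.30, adjusted p = 0.617), neither past the threshold. Of all probes, 0.920% had 5Aza groups wholly below saline in both arteries. The other Smtn probes gave -0.39 and -0.03 in the ligated artery, so the shift was seen by 1 of 3 probes.

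**Figure D4:**
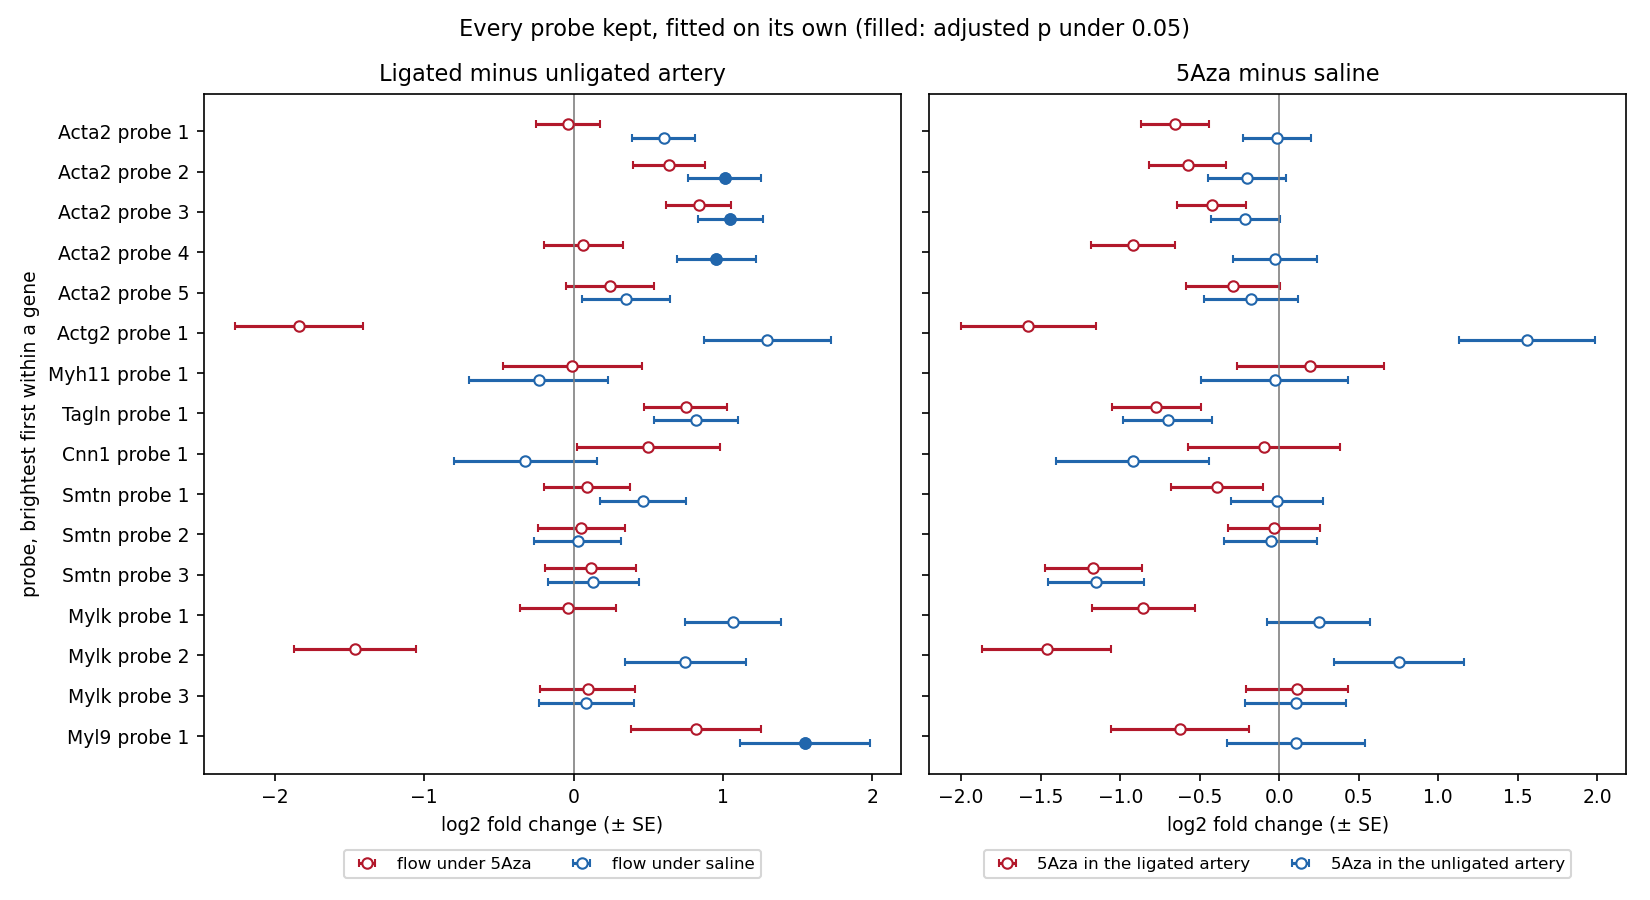
Log2 fold changes (horizontal axis, ± SE) of the 16 probes that passed the filter, each fitted on its own and numbered within a gene from the brightest, in the same colours as the plot of the 8 genes. Filled points had adjusted p under 0.05: Acta2 probes 2, 3 and 4 and the Myl9 probe with flow under saline. Smtn probe 3 lies at -1.17 in the ligated and -1.15 in the unligated artery for 5Aza, apart from the other Smtn probes.

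The genes did not move as one block over the 12 arrays. Of the 28 pairs among the 8 genes, 20 had a Pearson correlation above 0, with a median of 0.30 and a range of -0.58 (Myh11 and Smtn) to 0.78 (Acta2 and Tagln). The points share their groups and their arrays, so these values are descriptions. Acta2 also correlated with Myl9 at 0.71, and Tagln with Myl9 at 0.70. Within saline LCA, array 1 was the lowest of the 3 for Acta2, Actg2, Smtn, Mylk and Myl9 and the highest for Myh11, Tagln and Cnn1.

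Among genes outside the set, those most like the mean of the 8 over the 12 arrays were Syncrip, an RNA-binding protein (r = 0.92), Tpm2, the beta-tropomyosin of thin filaments (r = 0.90), and the transcription factor Cebpg (r = 0.88). They were followed by Dnajc8 and Manf (r = 0.87 each), Akirin1 (r = 0.87), the calponin Cnn2 (r = 0.87), Rbmxl1 (r = 0.86), the interferon-induced chemokine Cxcl10 (r = 0.86) and Dek (r = 0.86). The most opposite were the ubiquitin ligase Trim3 (r = -0.94), the vesicle GTPase Rab3a (r = -0.92), Eif2b4 (r = -0.91), the riboflavin transporter Slc52a3 (r = -0.89) and Snai3 (r = -0.88). These correlations carry no test.

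Other genes of the contractile and cytoskeletal machinery, 22 of 26 listed, were tested as well. Of these, 3 rose with flow under saline and 0 fell, with a median of 0.16, where 11.5% of all genes were called and 5.29% were called higher. Cald1, the thin-filament protein caldesmon, averaged 8.72 ± 0.72 in ligated and 7.32 ± 0.18 in unligated arteries of saline mice (SD, n = 3 each) and rose by 1.40 (SE 0.32, adjusted p = 0.0223). Cnn2, a calponin found in many cell types, rose by 1.44 (SE 0.37, adjusted p = 0.0321) and the intermediate filament gene Synm by 1.09 (SE 0.32, adjusted p = 0.0473). Tpm2 gave 1.19 (adjusted p = 0.0506). None of the 22 passed in the other comparisons.

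Of 8 tested transcription factors that govern contractile genes, 1 fell with flow under saline and none rose, where 11.5% of all genes were called in either direction. Klf4, a factor that represses contractile genes in smooth muscle and is induced by steady flow in endothelium, averaged 6.79 ± 0.56 in ligated and 8.55 ± 0.30 in unligated arteries of saline mice (SD, n = 3 each) and fell by 1.76 (SE 0.30, adjusted p = 0.00691). In 5Aza mice it averaged 8.05 ± 0.08 in the ligated and 8.75 ± 0.45 in the unligated artery (difference -0.70, adjusted p = 0.369). Myocd, the myocardin gene, was at 4.72, 5.15 and 4.65 in 5Aza LCA and 5.38, 6.50 and 5.77 in saline LCA, apart from each other but not called (-1.04, SE 0.37, adjusted p = 0.173). The serum response factor gene Srf did not pass in any comparison. Of 4 tested channels and receptors of smooth muscle, Pln, the phospholamban that restrains the calcium pump, was the 1 that passed: with flow under saline it fell by 1.52 (SE 0.27, adjusted p = 0.00928). In that comparison 11.5% of all genes were called in either direction.

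Genes that smooth muscle cells take up when they leave the contractile state were measured for 9 of 12 listed. Col8a1, a short-chain collagen, rose with flow under saline by 2.01 (SE 0.44, adjusted p = 0.0194) and Lgals3, galectin-3, by 3.11 (SE 0.78, adjusted p = 0.0302), while 7 did not pass. Of all genes, 5.29% were called higher in that comparison. Lgals3 was detected on 7 of 12 arrays and averaged 4.65 in saline RCA, so the size of its rise rests partly on values at background. Lgals3 is also made by macrophages, whose markers rose for 14 of 16 genes in the same comparison. With flow under 5Aza 3 of 16 rose (0.453% of all genes were called). The fewest macrophage markers on an array were 2 of 18 in saline RCA and 4 of 18 in 5Aza RCA. Most of the 16 thus passed the filter through the ligated groups alone, and their counts are not read as a result. The part of macrophages in the contractile results was not tested. Fn1, the fibronectin gene, was lower in 5Aza LCA (8.97 ± 0.21) than in saline LCA (9.99 ± 0.23, SD, n = 3 each) and fell by 1.02 (SE 0.20, adjusted p = 0.0499). Between the ligated arteries 0.462% of all genes were called in either direction.

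Markers of other cells that can make some of these proteins were counted too. Of 6 pericyte markers 3 were tested and 0 passed in any comparison. Of 10 fibroblast markers, Col1a1 rose (1.65, adjusted p = 0.0147) and Pi16 fell (-2.01, adjusted p = 0.0301) with flow under saline, where 11.5% of all genes were called in either direction. The mean level of the 10 fibroblast markers was 8.04 to 8.47 in 5Aza LCA and 7.10 to 7.74 in 5Aza RCA, against 6.89 to 7.71 in saline LCA and 6.81 to 7.68 in saline RCA. The part of fibroblasts in the contractile results was not tested. Of 9 cardiac markers on the array 1 was tested and did not pass, and of 3 Schwann cell markers none was. Of 17 endothelial markers tested, 5 fell with flow under saline and 1 with flow under 5Aza, where 11.5% and 0.453% of all genes were called in either direction. Of 4 adipocyte markers tested, 2 rose with 5Aza in the ligated artery and 1 with flow under 5Aza, where 0.462% and 0.453% of all genes were called in either direction. These 4 markers passed the filter through 5Aza LCA alone, the group where they were highest, so the counts are not read as a result. The part of adipocytes in the contractile results was not tested. Of 6 markers of red cells and platelets, 2 rose with flow under saline, where 5.29% of all genes were called higher.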

How the data were processed

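The members and the gene lists were chosen with earlier results of these data known. RNA from 12 samples, 3 in each of 4 groups named by the labels, was hybridised to Illumina mouse bead arrays. Per the file headers, the unprocessed table holds the intensity of each probe and its detection p-value as deposited, and the authors exported it with GenomeStudio 2010.3 per the submitters' processing notes. A second deposited table of normalized intensity values by the authors served as an alternative, read on a log2 scale. Which sample lay on which of the slides is not given in the sources used here, and no term for it was fitted.

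Background correction, quantile scaling and log2 were done by the neqc function of limma 3.58.1 in R 4.3.3, with an offset of 16. Probe genes came from the platform annotation with symbols updated to RefSeq: 34885 probes had 1 symbol, 18 had several and 10378 none. Probes detected at p under 0.05 on all 3 arrays of a group were kept (21979, of which 18150 with 1 symbol), the brightest standing for each of 10596 genes. limma's model, in which each group has its own mean, took in all 12 arrays, with two-sided moderated tests, Benjamini-Hochberg adjustment within each of 5 contrasts and calls at adjusted p under 0.05. The group spread was 0.37 in 5Aza LCA, 0.36 in 5Aza RCA, 0.51 in saline LCA and 0.33 in saline RCA (root mean variance, log2), while the model used 1 spread per gene. Detected probes ranged from 21443 to 23251 per array and median intensity from 83.8 to 88.9. The number of arrays limits the precision, and p-values measure only the spread between these pools. A bound compares the brighter mean with the detection limit of the dimmer arrays. From each other list the genes past the threshold were named, up to 4, or else the 3 of smallest p, of which some are given. The 10 genes most like and 5 least like the mean of the set were named too. Srf, Tpm2 and 6 skeletal muscle markers were named after their values were seen. Alternatives covered starting values, background, scaling, filter, probes per gene, variance prior, array weights, the groups in the fit, replicate blocks and leaving out each array, where the pair left is taken to vary as the full groups do. The pipeline was tested on simulated data.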

Additional observations from a re-analysis of the deposited data

Results flagged for a closer look

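The flow difference of Actg2 ran in opposite directions under the 2 treatments. Every 5Aza LCA array was below every 5Aza RCA array, and every saline LCA array above every saline RCA array. The flow effect under 5Aza minus that under saline was -3.14 on the log2 scale (SE 0.61, limma interaction term, unadjusted p = 0.000259), and it did not pass after adjustment over all genes (adjusted p = 0.229). The value ran from -3.62 to -2.78 as each array was left out, and the adjusted p was 0.0013 without saline LCA 1, where 11.2% of all genes were called. Over the other alternatives the value ran from -3.44 to -1.43. Adjusted p ran from 0.0013 to 0.708 over all alternatives. The flow difference of Actg2 ran from -2.06 to -0.82 under 5Aza and from 0.61 to 1.71 under saline over those other alternatives. The sizes thus depended on the processing. The probe was detected on 1 of the 3 arrays of 5Aza LCA, so the size rests partly on values at background. Of the 10596 genes, 31 had groups apart in these opposite directions.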

How the results depend on the processing

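Of 961 values of single genes and comparisons recomputed under the alternatives, 871 kept their direction and their side of the threshold, 26 passed only under the alternative, 13 passed only with the main settings and 51 changed sign; none of the 51 was called. Over all genes, calls with flow under saline ran from 129 to 3743 over the alternatives other than left-out arrays, against 1221 in the main fit. Counts for this set that change with the setting are therefore not read as results about the set. The number of these genes called with flow under saline was 1. It was 5 with array weights, 3 with the authors' normalized table, without background correction or with a trended robust variance prior, and 2 with normexp, with the strict filter, with every probe on its own or with the mean of a gene's probes. It was 0 without a filter and with only the groups compared, and 0 to 3 as each array was left out. With array weights it was 1 for flow under 5Aza, 3 for 5Aza in the ligated artery and 2 for the interaction, all 0 in the main fit, where array weights called 1.47%, 21.3% and 7.99% of all genes (35.3% for flow under saline), and as each array was left out these 3 ran from 0 to 1, 0 to 2 and 0 to 2. The number stayed at 0 for 5Aza in the unligated artery. Sign changes at values near 0 (log2) were 0.0168 for Acta2 in the unligated artery with median scaling, 0.0382 with array weights and 0.350 with the mean of probes for Acta2 with flow under 5Aza, 0.179 for Cnn1 in the ligated artery, -0.0256 for Myl9 in the unligated artery and 0.0455 for the Tagln interaction with array weights, and -0.0149 for Smtn with flow under 5Aza with median scaling. Myh11 with flow under 5Aza was 0.0378 with the authors' table, 0.0355 with normexp, 0.0377 without background correction and 0.0179 with array weights.

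Leaving out each array in turn gave signs of both kinds for Acta2 (unligated artery -0.15 to 0.15, flow under 5Aza -0.20 to 0.10), Cnn1 (ligated artery -0.56 to 0.36, flow under saline -0.77 to 0.11), Myh11 (ligated artery -0.21 to 0.71, unligated artery -0.26 to 0.18, interaction -0.19 to 0.74, flow under 5Aza -0.36 to 0.51, flow under saline -0.64 to 0.18), Myl9 (unligated artery -0.26 to 0.47), Mylk (unligated artery -0.0270 to 0.448, flow under 5Aza -0.24 to 0.24), Smtn (unligated artery -0.27 to 0.22, flow under 5Aza -0.0526 to 0.265) and the Tagln interaction (-0.27 to 0.22).

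Equal numbers were not taken as pairs: deviations of same-numbered arteries correlated at 0.06, 0.05 and 0.03 under saline and at 0.02 and -0.03 under 5Aza, and each saline LCA array correlated best with its own number. With a replicate block by title number, by description number or by treatment and title number (the last chosen after seeing the data), 0 of these genes were called with flow under saline. The title block gave 0.221 for Acta2 and 0.0879 for Smtn in the unligated artery, 0.0718 for Myh11 and -0.0102 for Smtn with flow under 5Aza, and the treatment and title block -0.00469 for the Myh11 interaction. Over all genes, calls ran from 182 to 3467 for flow under saline (1221 in the main fit), 4 to 292 for flow under 5Aza (48), 0 to 2378 for 5Aza in the ligated artery (49), 0 to 1 in the unligated artery (0) and 0 to 1254 for the interaction (0) as each array was left out; over the other alternatives they ran from 129 to 3743, 4 to 156, 0 to 2254, 0 to 1 and 0 to 847. The cause of these shifts was not tested. Signals near background, as for Cnn1, Des and Lmod1, for Tagln in 5Aza RCA and for Actg2 in 5Aza LCA, limit what can be measured.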
